A study of Mus musculus with 12 samples.

Results

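The miR-99/100 and miR-125 families of mouse were described in AKR-2B fibroblasts growing as colonies in soft agar. Every row of the mature miRNA count table named miR-99, miR-100 or miR-125 was taken by its name, which gave 11 of 1281 listed miRNAs. No row was kept or left out by its values, but earlier results of these data were known when the members were chosen. Of these, 9 had a mean of at least 10 CPM, a level scaled to library size. The other 2 were miR-99a-3p, with 2 reads over all libraries, and miR-100-3p, with 4 reads, and neither is described further. AKR-2B is an established mouse fibroblast line, and soft agar keeps cells from attaching to a surface. Cells received vehicle or 25 ng/mL of the cytokine TGFβ, and RNA was taken from the recovered colonies at days 2, 4 and 8. The labels name no other difference between the groups. Each of the 6 combinations of treatment and day had 1 miRNA library. A difference between 2 libraries therefore has no replicate check, and its interval covers counting error only.

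A microRNA (miRNA) is cut from a hairpin precursor, and its 5p or 3p arm guides the silencing complex to messenger RNAs that pair with its seed, bases 2 to 8. The miR-99/100 and miR-125 families lie with let-7 miRNAs in clusters that are conserved across animals. The miR-99/100 family is known for targeting mTOR and the IGF1 receptor, and the miR-125 family for targeting Lin28, which blocks let-7 maturation, and regulators of cell death and differentiation.

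The mature 5p sequences define the families and show which members can be told apart by their reads. In each line the capitals mark the seed, and mmu stands for mouse and is left out elsewhere. Sequences and positions are from RefSeq (GRCm38.p6), which matched all 11 rows.
mmu-miR-99a-5p: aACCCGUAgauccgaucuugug
mmu-miR-100-5p: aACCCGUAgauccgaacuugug
mmu-miR-99b-5p: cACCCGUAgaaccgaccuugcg
mmu-miR-125b-5p: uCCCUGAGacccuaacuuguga
mmu-miR-125a-5p: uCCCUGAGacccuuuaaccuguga
mmu-miR-351-5p: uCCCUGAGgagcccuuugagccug
The miR-99/100 members share the seed ACCCGUA. Counted from the 5′ end, miR-99a-5p differs from miR-100-5p by A16U alone, and miR-99b-5p differs from miR-100-5p by A1C, U11A, A16C and U21C. A read of miR-99a-5p or miR-100-5p is therefore assigned by 1 base, and a misread base could move it between them. miR-125a-5p and miR-125b-5p share the seed CCCUGAG and their first 13 bases. miR-351-5p, whose gene is on the X chromosome, has the same seed, as do miR-6367 and miR-6394, which had 0 reads. The 3p arms have other seeds. Those of miR-125b-1 and miR-125b-2 are shown here because they tell apart the 2 hairpins that give the same 5p arm.
mmu-miR-125b-1-3p: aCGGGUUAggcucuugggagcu
mmu-miR-125b-2-3p: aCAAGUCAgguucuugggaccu

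The members come from 3 clusters, each with 1 let-7 hairpin between a miR-99/100 hairpin and a miR-125 hairpin, and all on the plus strand (annotation GENCODE vM21, GRCm38). On chromosome 16, Mir99a (16:77598936-77599000), Mirlet7c-1 and Mir125b-2 (16:77646273-77646343) span 47.4 kb inside the noncoding gene Mir99ahg, outside its exons. On chromosome 9, Mir100 (9:41531425-41531504), Mirlet7a-2 and Mir125b-1 (9:41581926-41582002) span 50.6 kb inside the noncoding gene 3110039I08Rik. Mir125b-1 also lies in an exon of the sense-intronic transcript Gm28119. On chromosome 17, Mir99b (17:17830188-17830257), Mirlet7e and Mir125a (17:17830812-17830879) lie within 0.692 kb inside the protein-coding gene Spaca6, outside its exons. miR-99a-5p, miR-100-5p, miR-99b-5p, miR-125a-5p and all 3p arms are each made from 1 cluster. miR-125b-5p is made from both chromosome 9 and chromosome 16. A second table deposited by the authors, with values per precursor, gave 50.5% to 50.7% of miR-125b-5p to the chromosome 9 precursor in every library. That is a near-even division of the same reads, so the locus of miR-125b-5p was not measured.

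**Figure D1:**
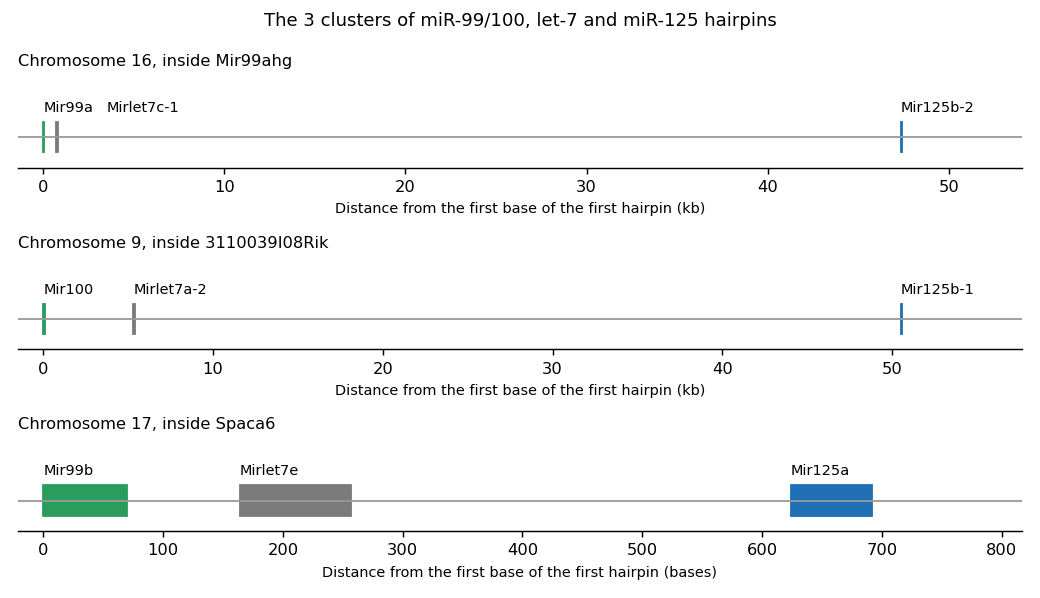
Positions of the hairpins in the 3 clusters, as distance from the first base of the first hairpin, in kb for chromosomes 16 and 9 and in bases for chromosome 17; green bars are miR-99/100 hairpins, grey bars let-7 and blue bars miR-125. The clusters on chromosomes 16 and 9 span 47.4 and 50.6 kb and the cluster on chromosome 17 spans 692 bases.

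The miRNA libraries held 108716 to 1387785 reads, and the TGFβ library was the deeper at each day. Depth also rose with day, at 108716, 232107 and 414943 reads in vehicle and 178877, 459795 and 1387785 with TGFβ. Day and depth therefore cannot be told apart. Levels are CPM after scaling of the libraries by trimmed mean of M-values (TMM, factors 0.839 to 1.17). Of 6 fibroblast marker miRNAs, all 6 were present, with a summed level of 109239 to 127046 CPM in vehicle and 242203 to 302931 CPM with TGFβ. miR-21a-5p, 1 of the 6 and a miRNA raised by TGFβ, alone had 28971 to 50154 CPM in vehicle and 119204 to 156589 CPM with TGFβ. The difference in the sum is therefore no measure of fibroblast content. Markers of epithelium summed to 986 CPM in the TGFβ library of day 2, against 15.4 to 211 CPM in the 5 others. The same library held 49 reads of miR-10b-5p, a relative of miR-100 with another seed, against 2 to 9 reads in the others. Of the 7 leukocyte and blood markers, 4 were in the table, and they summed to 0 to 1.66 CPM with miR-451a and miR-144-3p at 0. In vehicle the epithelial markers summed to 211, 51.7 and 15.4 CPM at days 2, 4 and 8. The part of the epithelial markers in the values of day 2 was not tested, and TGFβ results averaged over the days are also given without day 2. Comparisons with day 2 need that day, and the slopes over time were not fitted without it. Striated muscle markers summed to 89.1, 22.2 and 15.4 CPM in vehicle at days 2, 4 and 8 and to 218, 119 and 131 CPM with TGFβ, with miR-133b-3p at 0. Nerve markers summed to 318 to 361 CPM in vehicle and 412 to 550 CPM with TGFβ, with miR-124-3p at 0. The liver marker miR-122-5p was at 47.2 CPM in the TGFβ library of day 2 and at 0 to 11.1 CPM in the others. The part of these markers in the results was not tested.

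The 2 families together were among the most abundant miRNAs of these colonies. All members took 15.6%, 16.7% and 20.3% of the reads in vehicle at days 2, 4 and 8. With TGFβ they took 16.5%, 18.5% and 17.8% on the same days. The exact 95% binomial interval was at most 0.432 percentage points wide. Like all intervals here it covers counting error alone, because each treatment and day had 1 library. Reads may also be copies of the same molecule, which the interval does not allow for. The share of reads was thus higher with TGFβ at days 2 and 4 and lower at day 8. At day 8 this direction turned with TMM scaling, where the members summed to 204566 CPM with TGFβ and 185229 CPM in vehicle.

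The reads that can be assigned to 1 cluster differed widely among the 3 clusters. The chromosome 17 cluster (miR-99b and miR-125a, let-7e left out) gave 10.8%, 11.1% and 11.1% of all reads in vehicle at days 2, 4 and 8, and 11.9%, 11.3% and 10.4% with TGFβ. miR-100 and miR-125b-1-3p of chromosome 9 gave 1.11%, 1.24% and 1.44% in vehicle and 1.73%, 1.46% and 1.65% with TGFβ. miR-99a and miR-125b-2-3p of chromosome 16 gave 0.211%, 0.531% and 1.67% in vehicle and 0.203%, 0.348% and 0.703% with TGFβ. The chromosome 17 share stayed within 10.4% to 11.9% over the 6 libraries. The share of miR-99a and miR-125b-2-3p differed 7.93-fold between days 2 and 8 of vehicle. It leaves out any miR-125b-5p made on chromosome 16, whereas the chromosome 17 share holds miR-125a-5p. miR-125b-5p, from chromosomes 9 and 16 together, added 3.41%, 3.87% and 6.10% in vehicle and 2.70%, 5.37% and 4.97% with TGFβ.

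By mean level over the 6 libraries, mmu-miR-99b-5p was the most abundant member (78155 CPM, 2nd of all miRNAs). It was followed by mmu-miR-125b-5p (44775 CPM, 5th) and mmu-miR-125a-5p (31820 CPM, 7th). mmu-miR-100-5p had 11080 CPM and mmu-miR-99a-5p 5971 CPM. Among the 3p arms, miR-125b-1-3p led with 3613 CPM, before miR-99b-3p (1646 CPM), miR-125a-3p (438 CPM) and miR-125b-2-3p (40.0 CPM). A read covers a whole mature miRNA of 22 to 24 bases, so these levels were not divided by length. The ranges over the 6 libraries of neighbours in this order overlapped, except between miR-125a-5p and miR-100-5p, between miR-99b-3p and miR-125a-3p, and between miR-125a-3p and miR-125b-2-3p.

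**Figure D2:**
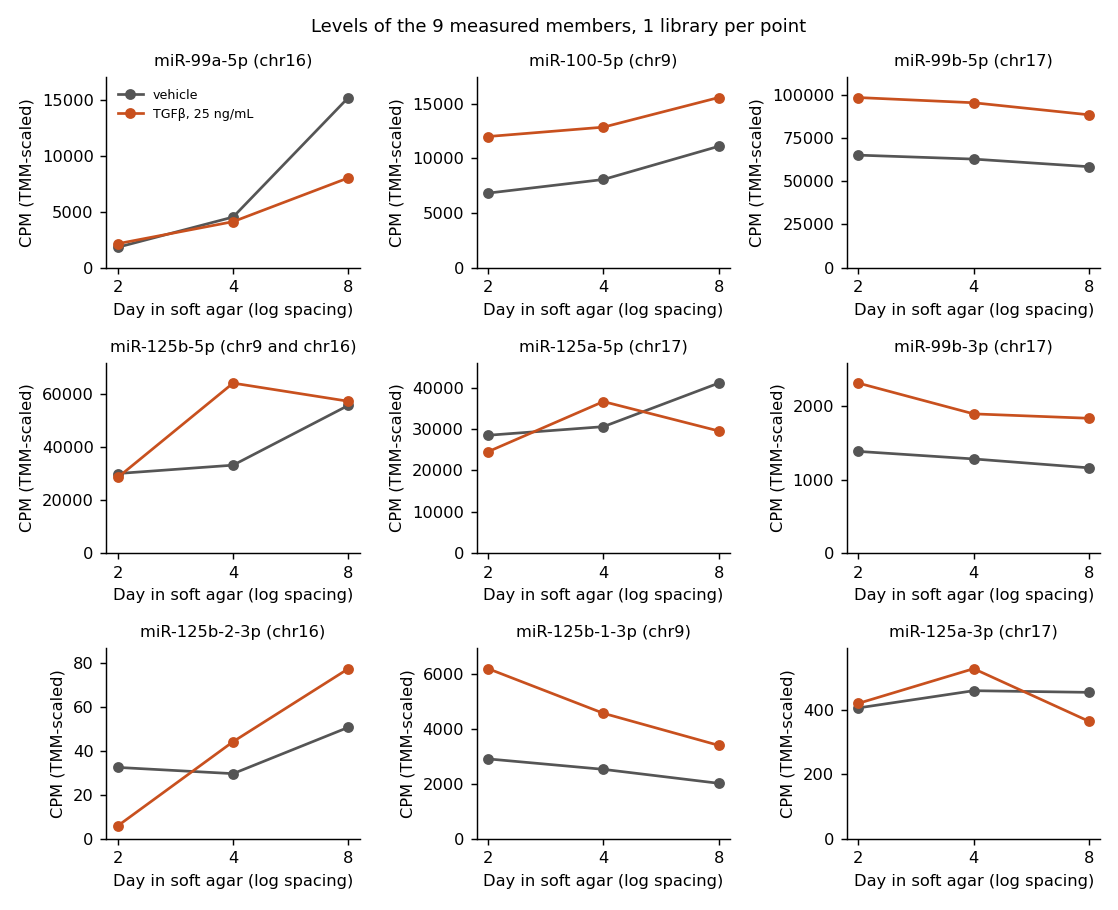
Level of each of the 9 members in CPM (TMM-scaled, linear axes from 0) against day in soft agar (spaced by doubling), in vehicle (grey) and TGFβ (orange), with 1 library per point and the chromosome of origin in each title. miR-99b-5p, miR-99b-3p, miR-100-5p and miR-125b-1-3p lie above vehicle at all 3 days, and miR-99a-5p of vehicle reaches 15202 CPM at day 8.

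miR-99a-5p, the miR-99/100 member of chromosome 16, rose with time in both treatments. In vehicle its level was 1822, 4524 and 15202 CPM at days 2, 4 and 8, from 225, 1224 and 6911 reads. In the TGFβ libraries it was 2143, 4110 and 8024 CPM, from 363, 1585 and 9665 reads. Both series climbed at each step, and the vehicle library of day 8 stands above the 5 others. From day 4 to day 8 alone, the level was 3.36-fold higher in vehicle (95% counting interval 3.16 to 3.57) and 1.95-fold higher with TGFβ (1.85 to 2.06). From day 2 to day 8 the level was 8.34-fold higher in vehicle (95% counting interval 7.30 to 9.57) and 3.74-fold higher with TGFβ (3.37 to 4.17). In vehicle it was the 1 member at least 2-fold higher at day 8, where 20.9% of all miRNAs were. With TGFβ there were 3 such members, miR-99a-5p, miR-125b-5p and miR-125b-2-3p, where 31.1% of all were. miR-125b-2-3p rests on 1 read at day 2 (13.1-fold, 95% counting interval 2.29 to 522). miR-125b-5p was at the threshold (2.00-fold, 1.95 to 2.06), and its share of all reads was 1.84-fold higher. In bulk RNA, more cells of one kind and more RNA per cell cannot be told apart.

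Across both treatments, miR-99a-5p was the one member called higher at day 8 than at day 2, by 2.49 ± 0.40 on the log2 scale (SE; edgeR quasi-likelihood test, adjusted p = 0.0166). Of all 309 miRNAs tested, 6.8% were called in either direction and 2.91% higher. miR-125b-5p differed by 0.94 ± 0.31 (edgeR adjusted p = 0.0909) and was called only with no filter on low counts (1.13, adjusted p = 0.0154 in edgeR, with 5.12% of all called higher). Between days 4 and 2 no member and no other miRNA was called in the main edgeR fit, which is 0%. Of all miRNAs, 27 had an unadjusted p under 0.05 in that fit. miR-99a-5p was again the member with the lowest p in it (1.10 ± 0.38, edgeR adjusted p = 0.439). DESeq2 called 2 miRNAs (0.647%), as did edgeR with DESeq2 size factors. With no filter edgeR called 13 (1.96%), and no member was among the called in any of these. In these fits the 2 treatments serve as the repeats of a day and are not replicates.

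A fit with a slope over the log2 of the day, added after the data were seen, gave the rise of miR-99a-5p in each treatment. In vehicle it was 1.53 ± 0.15 on the log2 scale per doubling of time (SE; edgeR adjusted p = 0.0249), where 1.94% of all miRNAs were called. With TGFβ it was 0.95 ± 0.15 (edgeR adjusted p = 0.0287), where 15.5% were called, 6.47% of all with a rising slope. Each slope rests on 3 libraries, and no other member was called in either. The difference of the slopes, TGFβ minus vehicle, was -0.58 ± 0.21 (unadjusted p = 0.0333, edgeR adjusted p = 0.299). No miRNA passed for this difference (0%), with 44 at an unadjusted p under 0.05, so a slower rise of miR-99a-5p with TGFβ was not called.

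Against its close relatives miR-99a-5p rose as well, which needs no scaling between libraries. For each 100 reads of miR-99b-5p there were 2.80, 7.20 and 26.0 reads of miR-99a-5p in vehicle at days 2, 4 and 8. With TGFβ there were 2.18, 4.30 and 9.07. The ratio thus rose 9.30-fold in vehicle and 4.17-fold with TGFβ. TGFβ over vehicle, it was 0.778 at day 2 (95% interval 0.657 to 0.920), 0.598 at day 4 (0.554 to 0.646) and 0.349 at day 8 (0.337 to 0.361). Lower with TGFβ at all 3 days, it had an exact paired sign-flip p of 0.25, two-sided, the smallest that 3 days allow. Over the 16 ratios compared in this way the adjusted value was 0.4, so no ratio here could pass a threshold.

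Against miR-100-5p, which differs from it by 1 base, miR-99a-5p stood at 26.7, 56.0 and 137 reads per 100 in vehicle and 17.8, 31.9 and 51.5 with TGFβ. In vehicle at day 8 it was the more abundant of the pair, and in the 5 other libraries the less abundant. The make-up of the miR-99/100 5p reads moved with it. miR-99b-5p fell from 88.3% to 69.0% of them between days 2 and 8 of vehicle, and from 87.4% to 78.9% with TGFβ. miR-99a-5p went from 2.47% to 17.9% in vehicle and from 1.90% to 7.16% with TGFβ, and miR-100-5p held 9.25% to 13.9% in all libraries.

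**Figure D3:**
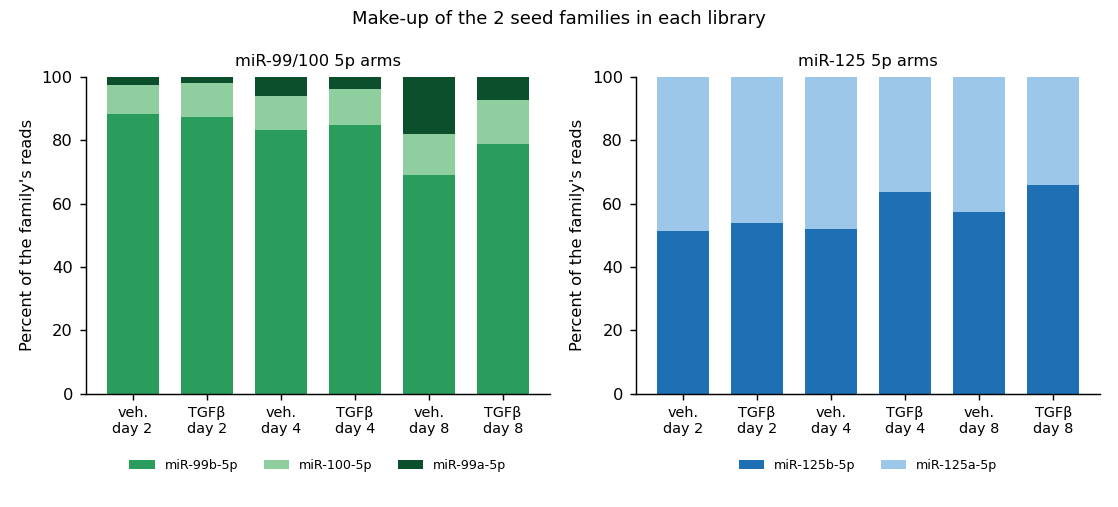
Percent of the 5p reads of each seed family held by each member in the 6 libraries; bars sum to 100%. The miR-99a-5p part of the miR-99/100 reads is widest in vehicle at day 8, at 17.9%, and the miR-125b-5p part of the miR-125 reads runs from 51.3% to 65.9%.

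miR-99b-5p was higher with TGFβ at each day, by nearly equal ratios under TMM scaling. Its level in vehicle was 65146, 62858 and 58450 CPM at days 2, 4 and 8. In the TGFβ libraries it was 98494, 95479 and 88505 CPM. The lowest TGFβ library lies above the highest vehicle library. The ratio was 1.51 at day 2 (95% counting interval 1.47 to 1.55), 1.52 at day 4 (1.49 to 1.55) and 1.51 at day 8 (1.49 to 1.53). The log2 change was less even with scaling by total reads (0.33, 0.13 and 0.26) and with DESeq2 size factors (0.58, 0.43 and 0.55), and whether the days differ was not tested. Its 3p arm, miR-99b-3p, was at 1385, 1282 and 1161 CPM in vehicle and 2314, 1896 and 1836 CPM with TGFβ, ratios of 1.67, 1.48 and 1.58. There were 1.99 to 2.35 reads of the 3p arm per 100 of the 5p arm in all 6 libraries, so both arms of this hairpin differed together.

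The 2 members made only on chromosome 9 were also higher with TGFβ at each day. miR-100-5p was at 6828, 8075 and 11115 CPM in vehicle at days 2, 4 and 8. It was at 12012, 12869 and 15582 CPM with TGFβ, ratios of 1.76 (95% counting interval 1.62 to 1.91), 1.59 (1.52 to 1.68) and 1.40 (1.36 to 1.45). Both series climbed with time under TMM scaling, where every TGFβ library lay above every vehicle library. As a share of all reads the treatments overlapped, with miR-100-5p at 1.22% in the vehicle library of day 8 and 1.08% in the TGFβ library of day 4, which also lay below the TGFβ library of day 2. miR-125b-1-3p was at 2916, 2535 and 2026 CPM in vehicle. With TGFβ it was at 6210, 4582 and 3411 CPM, ratios of 2.13 (1.89 to 2.41), 1.81 (1.65 to 1.98) and 1.68 (1.57 to 1.81). It fell at each step in both treatments, while miR-100-5p of the same cluster was higher at day 8 than at day 2. The treatments did not overlap in CPM, but as a share of all reads the TGFβ library of day 8 (0.296%) lay below the vehicle library of day 2 (0.331%).

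The ratio of miR-100-5p to miR-125b-1-3p was 2.34, 3.19 and 5.49 in vehicle and 1.93, 2.81 and 4.57 with TGFβ. It rose 2.34-fold and 2.36-fold from day 2 to day 8, almost the same in both. TGFβ over vehicle it was 0.826, 0.882 and 0.833, each with an interval below 1 (exact paired sign-flip p = 0.25).

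Averaged over the days, none of the 9 members was called for TGFβ in the edgeR fit over all 6 libraries, where 1.94% of the 309 miRNAs tested were called. Of all miRNAs, 89 had an unadjusted p under 0.05, among them 3 members. These were miR-99b-5p (0.60 ± 0.18 on the log2 scale, SE; edgeR adjusted p = 0.0997), miR-125b-1-3p (0.90 ± 0.28, adjusted p = 0.105) and miR-100-5p (0.66 ± 0.24, adjusted p = 0.128). DESeq2 called 0 of the 9. Without day 2, edgeR called 4 members higher, but then 34.7% of all miRNAs were called and 21% higher. The adjusted p-values of that fit were 0.0171 for miR-125b-1-3p, 0.0430 for miR-100-5p, 0.0480 for miR-99b-3p and 0.0481 for miR-99b-5p. It rests on 4 libraries.

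These 4 members were above vehicle at every day, as were 21.7% of the 373 miRNAs whose mean reached 10 CPM. The other 5 were above at some days and below at others. At 2-fold or more, 1 member was higher at day 2 (miR-125b-1-3p), where 11.9% of all measured miRNAs were. miR-125b-2-3p was past 2-fold lower at day 2, on 4 reads against 1, where 14.1% of all were. At days 4 and 8 no member was 2-fold higher (21.6% and 20.2% of all) or 2-fold lower (17.8% and 21.6%). The median log2 change of the 9 members was 0.23, 0.56 and 0.49 at days 2, 4 and 8, and that of all measured miRNAs was -0.04, 0.17 and 0.01.

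Scaling the libraries by their total reads, in place of TMM, lowered the median of all miRNAs by 0.26, 0.44 and 0.33 on the log2 scale at days 2, 4 and 8. The same 4 members stayed above vehicle at every day under that scaling, where 11.8% of all miRNAs were, and with DESeq2 size factors, where 19.8% were. Under scaling by total reads miR-125a-5p, miR-125a-3p and miR-99a-5p were below vehicle at every day, as were 36.7% of all. At day 8 miR-99a-5p was then past 2-fold lower (log2 change -1.26), as were 101 of 361 miRNAs. At day 2 miR-125b-1-3p was then no longer 2-fold higher (log2 change 0.83).

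**Figure D4:**
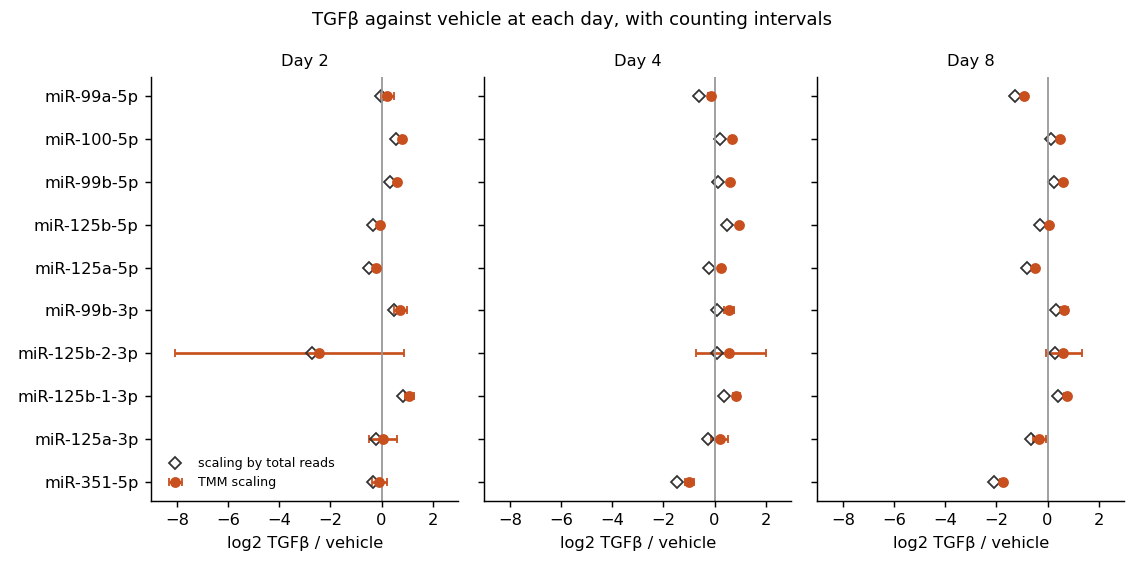
log2 ratio of TGFβ to vehicle for the 9 members and miR-351-5p at days 2, 4 and 8; orange points are TMM-scaled with exact 95% counting intervals, and open diamonds are scaled by total reads. miR-100-5p, miR-99b-5p, miR-99b-3p and miR-125b-1-3p lie right of 0 at each day under both scalings, and miR-351-5p lies at or left of 0.

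The miR-125 5p arms did not keep a single direction with TGFβ over the days. Under TMM scaling both were lower at day 2 and both higher at day 4. At day 8 miR-125a-5p was lower and miR-125b-5p was close to vehicle. miR-125a-5p, of chromosome 17, was at 28503, 30583 and 41106 CPM in vehicle at days 2, 4 and 8. With TGFβ it was at 24538, 36645 and 29548 CPM. The ratio was 0.861 (95% counting interval 0.823 to 0.901), 1.20 (1.17 to 1.23) and 0.719 (0.706 to 0.732). It was thus lower, higher and lower in turn, and the treatments overlap. With scaling by total reads the log2 change at day 4 was -0.21. The 3p arm, miR-125a-3p, was at 405, 458 and 453 CPM in vehicle and 419, 526 and 364 CPM with TGFβ.

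miR-125b-5p was at 30010, 33155 and 55665 CPM in vehicle at days 2, 4 and 8. Under TGFβ it was at 28552, 64049 and 57217 CPM. Its level was low in both libraries of day 2 and high in both of day 8, and at day 4 it was high only with TGFβ. The ratio was 0.951 (95% counting interval 0.911 to 0.993), 1.93 (1.89 to 1.98) and 1.03 (1.01 to 1.04). With scaling by total reads, the log2 change at day 8 was -0.30. Averaged over days it was 0.30 ± 0.25 (edgeR adjusted p = 0.455), -0.053 with scaling by total reads and 0.49 without day 2 (edgeR adjusted p = 0.181).

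Relative to miR-125a-5p, miR-125b-5p was higher with TGFβ at each day, since the ratio of the 2 was 1.05, 1.08 and 1.35 in vehicle and 1.16, 1.75 and 1.94 with TGFβ. TGFβ over vehicle it was 1.11 (95% interval 1.04 to 1.18), 1.61 (1.55 to 1.67) and 1.43 (1.40 to 1.46), higher at 3 of 3 days (exact paired sign-flip p = 0.25).

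The 2 hairpins of miR-125b are seen in their 3p arms. miR-125b-2-3p, of chromosome 16, was at 32.4, 29.6 and 50.6 CPM in vehicle on 4, 8 and 23 reads. Under TGFβ it was at 5.90, 44.1 and 77.2 CPM on 1, 17 and 93 reads. Its interval at each day included 1, so no difference with TGFβ was detectable at this depth. Per 100 reads of miR-125b-1-3p there were 1.11, 1.17 and 2.50 reads of miR-125b-2-3p in vehicle, and 0.0951, 0.962 and 2.26 with TGFβ. The 3p reads of miR-125b were thus almost all from chromosome 9 in every library.

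The 3p arm of miR-125b-1 did not follow the 5p reads. Per 100 reads of miR-125b-5p there were 9.72, 7.65 and 3.64 reads of miR-125b-1-3p in vehicle at days 2, 4 and 8. With TGFβ there were 21.7, 7.15 and 5.96. The ratio fell 2.67-fold in vehicle and 3.65-fold with TGFβ from day 2 to day 8. Between treatments it was 2.24 times as high with TGFβ at day 2 (95% interval 1.97 to 2.54), 0.936 times at day 4 (0.854 to 1.03) and 1.64 times at day 8 (1.52 to 1.76). The 5p reads also hold those of the chromosome 16 hairpin, so this is not an arm ratio of 1 hairpin. For miR-125a, which has 1 hairpin, there were 1.10 to 1.71 reads of the 3p arm per 100 of the 5p arm, and the interval of TGFβ over vehicle included 1 at each day.

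miRNAs of 1 cluster did not keep a fixed ratio, although those of chromosome 17 lie within 0.692 kb. miR-99b-5p stood at 2.29, 2.06 and 1.42 times miR-125a-5p in vehicle at days 2, 4 and 8. With TGFβ it stood at 4.01, 2.61 and 3.00 times. TGFβ over vehicle, this ratio was 1.76 (95% interval 1.67 to 1.85), 1.27 (1.23 to 1.31) and 2.11 (2.06 to 2.15), higher at 3 of 3 days (exact paired sign-flip p = 0.25).

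The 3p arms of the same 2 hairpins had higher ratios, with a similar TGFβ over vehicle. miR-99b-3p stood at 3.42, 2.80 and 2.56 times miR-125a-3p in vehicle and 5.52, 3.60 and 5.05 times with TGFβ. TGFβ over vehicle this was 1.61 (1.08 to 2.42), 1.29 (0.995 to 1.66) and 1.97 (1.63 to 2.38), with the interval at day 4 including 1.

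let-7e-5p, the let-7 miRNA between them, moved away from miR-99b-5p. Per 100 reads of miR-99b-5p there were 9.34, 10.1 and 15.5 reads of let-7e-5p in vehicle and 8.59, 6.91 and 6.33 with TGFβ. TGFβ over vehicle this was 0.920 (0.839 to 1.01), 0.687 (0.644 to 0.732) and 0.407 (0.391 to 0.424). Against miR-125a-5p the ratio of let-7e-5p was 1.62, 0.870 and 0.858, so from day 4 on let-7e-5p differed with TGFβ more like miR-125a-5p than like miR-99b-5p. let-7a-5p and let-7c-5p are also made at other loci and were not set against their clusters. The 3p arms that name the clustered hairpins, let-7a-2-3p and let-7c-1-3p, had 20 and 16 reads over all libraries.

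**Figure D5:**
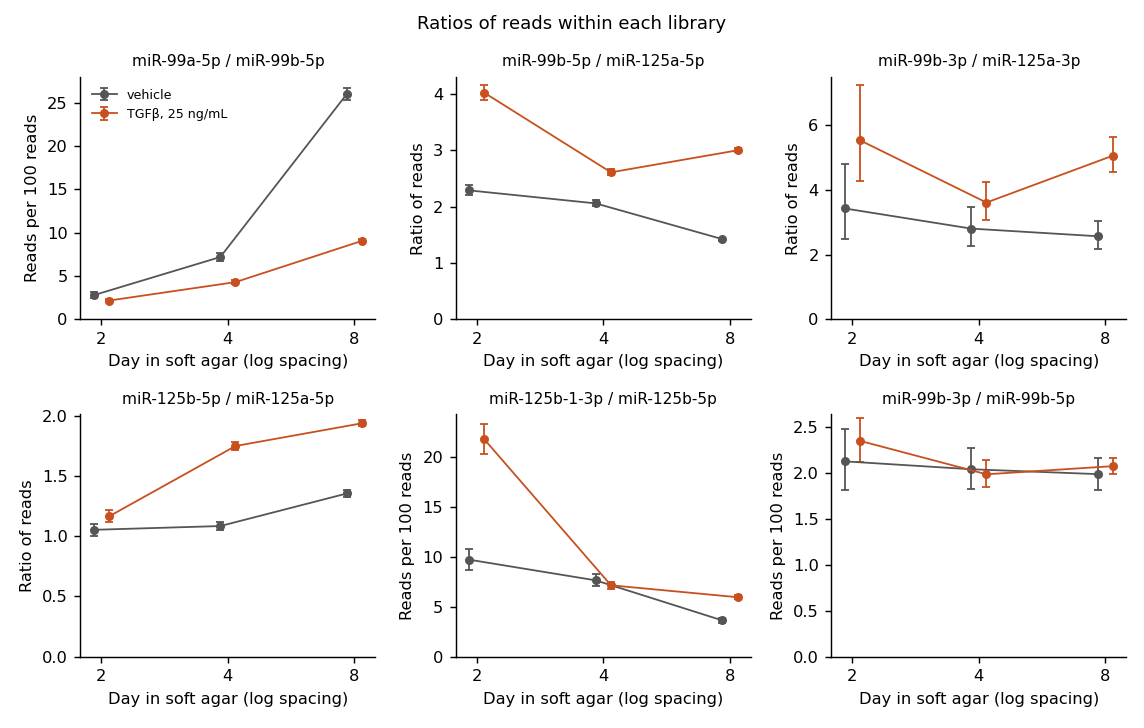
Ratios of reads between members within each library against day in soft agar (spaced by doubling), in vehicle (grey) and TGFβ (orange), with exact 95% counting intervals; axes start at 0. miR-99b-3p stays at 1.99 to 2.35 per 100 reads of miR-99b-5p, while miR-99a-5p reaches 26.0 per 100 of miR-99b-5p in vehicle at day 8.

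miR-351-5p, outside the families but with the miR-125 seed, was lower with TGFβ at days 4 and 8. It was at 1369, 2509 and 3834 CPM in vehicle and 1287, 1268 and 1144 CPM with TGFβ, ratios of 0.940 (95% counting interval 0.765 to 1.16), 0.505 (0.449 to 0.568) and 0.298 (0.278 to 0.320). Averaged over days it was not called (-0.95 ± 0.39 on the log2 scale, edgeR adjusted p = 0.161), nor by DESeq2 (adjusted p = 0.0618) or by edgeR with no filter (adjusted p = 0.119). It was called by edgeR with scaling by total reads (-1.31, adjusted p = 0.0238), with DESeq2 size factors (-1.03, adjusted p = 0.0487) and without day 2 (-1.37, adjusted p = 0.00841), but not without day 4 or day 8 (edgeR adjusted p = 0.722 and 0.771). miR-125b-5p was 21.9, 13.2 and 14.5 times as abundant in vehicle and 22.2, 50.5 and 50.0 times with TGFβ. All 3 miRNAs of this seed together took 6.80%, 7.72% and 11.0% of the reads in vehicle and 5.15%, 8.55% and 7.63% with TGFβ. miR-351-5p made up 1.24% to 3.81% of this sum.

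The miRNAs whose levels over the 6 libraries were most like those of the members were ranked among 183 others with a mean of at least 100 CPM, by Pearson correlation of log2 CPM. Libraries here share treatments and days, so the values describe a likeness only. Closest to miR-99b-5p was miR-21a-5p, a miRNA raised by TGFβ (0.98), before miR-151-3p (0.97) and miR-350-5p (0.96). Closest to miR-99a-5p was miR-140-5p (0.98), before miR-378a-3p and miR-103-3p (0.96 each). For miR-100-5p they were miR-30d-5p (0.92), miR-214-5p and miR-181b-5p (0.90 each). For miR-125b-5p they were miR-199b-3p, miR-199a-3p (0.93 each) and miR-331-3p (0.92), and for miR-125a-5p miR-129-2-3p (0.86), miR-3102-3p (0.84) and miR-107-3p (0.81). The summed miR-99/100 5p arms were closest to miR-224-5p (0.94), and the summed miR-125 5p arms to miR-3102-3p (0.91). The 5 members thus had 5 different nearest miRNAs. Among the members, measured the same way, miR-99b-5p was close to its own 3p arm (0.98) and to miR-125b-1-3p of chromosome 9 (0.93). With miR-125a-5p of its own cluster its correlation was -0.41, and with miR-99a-5p of the same seed -0.33.

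Published targets of the families were looked up in the authors' deposited tables of mRNA ratios, 1 per day, each with 998 genes of which 499 lie above 1. The tables do not name their direction. Ratios were read as TGFβ over vehicle because in the authors' deposited table Pmepa1, a direct TGFβ target, then lay above 1 at each day (5.41, 22.1 and 14.2). A gene outside the tables has no value, so nothing is shown about most targets. Of 18 published targets of miR-99/100, 1 was listed in the authors' deposited tables, Fkbp5, a steroid receptor cochaperone, at 5.20 on day 4. Mtor, Rptor and Igf1r were not listed.

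Of 42 published targets of miR-125, 4 were listed in the authors' deposited tables, all above 1. Mmp13, a collagenase, was at 12.0, 98.3 and 64.7 on days 2, 4 and 8 of the authors' deposited tables. The value of day 4 has, in lowest terms, the form of 147 reads against 1 with 0.5 added to each. Prdm1, a transcriptional repressor, was at 7.05 on day 4 and 7.39 on day 8 there. Edn1, the precursor of endothelin-1, was at 3.95 on day 2 of the authors' deposited table, and Cyp24a1, which inactivates vitamin D, at 7 on day 2. The ratio of Cyp24a1 has the form of 3 reads against 0 with 0.5 added to each. No per-sample mRNA values were used, so these ratios carry no estimate of error.

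Of the 13 host transcripts and hairpins of the clusters, 2 were listed in the authors' deposited tables, both hairpins of chromosome 9. Mir125b-1 was at 3.18 on day 2 and Mir100 at 5 on day 8 of the authors' deposited tables. These have the form of 17 reads against 5 and of 2 against 0, with 0.5 added to each. The hosts Mir99ahg, Mir100hg (a RefSeq name of 3110039I08Rik) and Spaca6 were not listed under these names. The name 3110039I08Rik itself was not looked up, nor was Gm49317, another noncoding gene around the chromosome 9 hairpins. Of 24 genes of miRNA processing and let-7 regulation, Lin28a and Lin28b included, 0 were listed.

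Of 38 genes of the insulin-like growth factor, AKT and mTOR pathway, 5 were listed in the authors' deposited tables. The ligand Igf1 lay at 10.3, 26.3 and 44.3 on days 2, 4 and 8 in the authors' deposited tables. In lowest terms these have the form of 15, 39 and 66 reads against 1, with 0.5 added to each, so they rest on a vehicle count that may be as low as 1 read. Deptor, an mTOR inhibitor, lay 8.38-fold lower on day 4 and 47.9-fold lower on day 8 in the authors' deposited tables. Sesn1, which restrains mTOR complex 1, was 7.44-fold lower on day 2 and 7.09-fold lower on day 8 in the authors' deposited tables. The binding protein gene Igfbp6 was 9.15-fold lower on day 2, and Igfbp7 was at 6.13 on day 4 and 5.48 on day 8 in the authors' deposited tables. With no test and no link to a member, these values stand as a description of the pathway.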

How the data were processed

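The authors deposited mature miRNA counts, whole and unscaled. Another table that the authors deposited holds RPM values, scaled to library totals, by mature miRNA and precursor. Summed per member, these lay within 0.13% of the counts. For mRNA the authors deposited 1 ratio per gene and day, without values per sample. The submitters' processing notes name edgeR 3.9 and mm10 but state no role for them. The aligner is not given in the sources used here, nor is the program that counted miRNAs. Groups were taken from the labels.

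Fits used R 4.3.3, edgeR 4.0.16 and limma 3.58.1: the quasi-likelihood test with TMM, edgeR's expression filter, day as a factor plus treatment over 6 libraries, and a Benjamini-Hochberg threshold of 0.05 over 309 miRNAs. With day as a factor, the 2 residual degrees of freedom come from how the TGFβ effect varied among days. edgeR draws this spread towards that of all miRNAs, with 6.79 prior degrees of freedom. The p-values thus rest largely on a spread shared among miRNAs. In the slope fit the spread is the departure of levels from a straight line over the log2 of the day. The biological coefficient of variation was 33.4%. The TGFβ test was also run on simulated counts with known changes of 2-fold or more, 1 spread for all miRNAs and no effect of day. That run does not cover smaller changes, the comparisons of days or the slope fit. Within a day, log2 changes used a prior count of 2 and a mean of at least 10 CPM. Intervals of a ratio of 2 libraries or 2 miRNAs are exact (95%, scipy 1.17.1), and those of a ratio of ratios are normal intervals on the log scale. Alternatives were scaling by total reads or by DESeq2 size factors, DESeq2 1.42.0, no filter, another minimum level or prior count, and each day left out. Named were all members, their let-7 partners, miRNAs with the same seed, the miR-10 relatives, the 3 most alike miRNAs of each 5p member and family sum, and listed target and host genes. The members, lists and tests were chosen with earlier results of these data known. miR-21a-5p and Pmepa1 serve as reference points, and miR-21a-5p is also 1 of the fibroblast markers.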

Additional observations from a re-analysis of the deposited data

Results flagged for a closer look

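miR-125a-5p differed with TGFβ in opposite directions between days. TGFβ over vehicle, its ratio at day 2 was 0.861 and at day 4 it was 1.2, before 0.719 at day 8, with 1 library per treatment and day. The difference between the days was not tested. With scaling by total reads the ratio lay below 1 at all 3 days.

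miR-125b-5p likewise had a ratio of 0.951 at day 2, then 1.93 at day 4, and 1.03 at day 8. The difference between the days was not tested. The ratios of day 2 and day 8 lie near 1, and the sign at day 8 changed with the scaling.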

How the results depend on the processing

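The count of miRNAs called for TGFβ averaged over days was 6 (4 higher, 2 lower). It was 61 with scaling by total reads (15 higher, 46 lower), 58 with DESeq2 size factors (25 and 33), 35 with DESeq2 and 46 with no filter, and 2 to 109 with one day left out. None of these called a member for TGFβ except the fit without day 2, with 4 members. The count for day 8 against day 2 was 21 (9 higher), and 55 with total reads, 58 with DESeq2 size factors, 52 with DESeq2, 62 with no filter (34 higher) and 13 without day 4. miR-99a-5p was called in each of these. The count for day 4 against day 2 was 0, and 2 with DESeq2 size factors, 2 with DESeq2 and 13 with no filter. At day 2, 94 miRNAs were past 2-fold, and 212 with a minimum mean of 1 CPM. Some signs turned. For TGFβ averaged over days, these were miR-125b-2-3p (0.18; -0.19 with total reads, -0.11 with DESeq2, -0.22 without day 4), miR-125b-5p (-0.053 with total reads, -0.076 without day 4) and miR-125a-3p (0.0036 without day 8). With no filter they were miR-125a-3p (0.18) and miR-99b-5p (0.041) for day 8 against day 2, and miR-99b-5p (0.038) for day 4 against day 2. Within days, with total reads, miR-125a-5p at day 4 was at -0.21, miR-125b-5p at day 8 at -0.30, miR-99a-5p at day 2 at -0.028, and miR-125a-3p at day 2 at -0.21 and at day 4 at -0.27. miR-125b-5p at day 8 was at -0.0075 with DESeq2 size factors. The causes were not tested. With the 10 most abundant other miRNAs left out, members took 25.1% to 31.8% of the reads. Day is a factor in these fits, which compares the treatments within days, and with 1 library per treatment and day there was no replicate number to add as a block.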
